A study of Homo sapiens with 10 samples.

Results

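The syndecans and glypicans are the 2 families of heparan sulfate proteoglycans that sit in the cell membrane. They were chosen by symbol, SDC1 to SDC4 and GPC1 to GPC6, which gave 10 genes of the 58381 rows in each library's table, 4 syndecans and 6 glypicans. Expression was measured by RNA sequencing in GIST-T1, an established human cell line from a metastatic gastrointestinal stromal tumour (GIST), and in derivatives of it. The groups were 4 derivative lines with a disrupted insulator bound by CTCF, the DNA-binding protein that marks many chromosome loop boundaries, named by genotype as InsE, InsF, InsG and InsH, and the control with the genotype WT. Each group had 2 libraries, 10 in all, and all groups share the GIST-T1 background and its culture medium. Which edit each line carries, and whether a line grew from a single clone, is not given in the sources used here, nor is it said that the libraries of a group were grown apart, so the p-values measure a spread that may be technical. The question was what insulator disruption does to expression in cells whose succinate dehydrogenase is intact.

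Syndecans span the membrane and signal through a short cytoplasmic tail, whereas glypicans are held on the outer face by a lipid anchor. Both carry long heparan sulfate chains that bind growth factors, fibroblast growth factors (FGFs) among them, and present them to their receptors. The chains are built in the Golgi, trimmed outside the cell by sulfatases and heparanase, and the core proteins can be shed by proteases.

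Libraries held 9.4 to 42.5 M (mega) expected counts, with less in replicate 2 than in replicate 1 of every group. Of the 10 genes, 8 passed the expression filter and 2 did not. The GIST markers KIT, ANO1 and CD34 were high in every group. The 9 GIST markers summed to 2653 to 2851 TPM (a share of all transcripts, corrected for transcript length) in the lines and to 3543 and 3525 TPM in control. In the mean of the lines 6 of the 9 were called lower and 0 higher, beside 14.5% and 13.1% of all genes tested. By line, 7 were lower in InsE and 5 in each other line, with 1 higher in InsG and 1 in InsH. KIT (log2 change in the mean -0.80 ± 0.04, edgeR adjusted p = 2.78e-06) and ANO1 (-0.77 ± 0.05, adjusted p = 6.15e-06) were called lower in every line. Of the 5 epithelial markers, KRT19 was listed at 0 in every library, CDH1 had at most 0.04 TPM and EPCAM at most 0.96 TPM. KRT18 had 178 to 252 TPM and KRT8 15.1 to 24.7 TPM. The sum was 194 to 255 TPM in the lines and 268 and 278 TPM in control, and KRT18 was called lower in the mean of the lines. Of the 5 smooth muscle markers, DES was listed at 0 in every library, MYH11 had at most 0.35 TPM and CNN1 at most 0.22 TPM. SMTN had 131 to 159 TPM and ACTG2 4.70 to 25.3 TPM. That sum was 137 to 179 TPM in the lines and 161 and 164 TPM in control, with ACTG2 called higher and SMTN lower in the lines' mean. In InsE, ACTG2 was not called (log2 change -0.38 ± 0.16, edgeR adjusted p = 0.121). The 5 fibroblast markers summed to 1505 to 2373 TPM in the lines and to 1442 and 1448 TPM in control. All 5 were called higher in the mean of the lines, beside 13.1% of all genes. By line, 5 were called higher in InsF and 4 each in InsG and InsH, but in InsE 2 were called higher and 1 lower (COL3A1, -0.39 ± 0.06, edgeR adjusted p = 0.00147). The part of these shifts in the changes of the syndecan and glypican genes was not tested.

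On the scale corrected for length, SDC3, SDC2, GPC4 and GPC3 were the abundant transcripts of the 2 families. SDC3 had the highest level in every library, at 194 to 285 TPM in the lines and 288 and 303 TPM in control. SDC2 followed in all libraries but those of InsE, at 135 and 136 TPM in InsE and 174 to 206 TPM in the other lines, against 185 and 191 TPM in control. In InsE the second place went to GPC3, at 174 and 162 TPM. SDC1 had 23.4 to 27.9 TPM in the lines and 39.5 and 44.6 TPM in control. GPC1 ranged from 16.8 to 28.0 TPM, GPC2 from 11.9 to 21.4 TPM and GPC6 from 2.83 to 8.75 TPM over all libraries.

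The summed level of the 10 genes was lowest in InsE. It averaged 654 ± 7.78 TPM in InsE, 778 ± 10.6 TPM in InsF, 771 ± 19.9 TPM in InsG and 774 ± 14.9 TPM in InsH, against 824 ± 18.8 TPM in control (SD, n = 2 each). The 4 syndecans summed to 366 TPM in InsE, 499 TPM in InsF, 478 TPM in InsG and 482 TPM in InsH, against 526 TPM in control. The 6 glypicans summed to 288 TPM in InsE, 279 TPM in InsF, 293 TPM in InsG and 292 TPM in InsH, against 298 TPM in control. These sums are a description and were not tested. They were taken in TPM only, and the size of a gap depends on the scale. SDC2, for example, averaged 225 CPM (a share of counts, not corrected for length) in InsE against 254 CPM in control. In TPM it averaged 136 in InsE against 188 in control. SDC3 made up between 55.8% and 56.9% of the syndecan sum in the means of the 4 lines, against 56.2% in control.

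**Figure D1:**
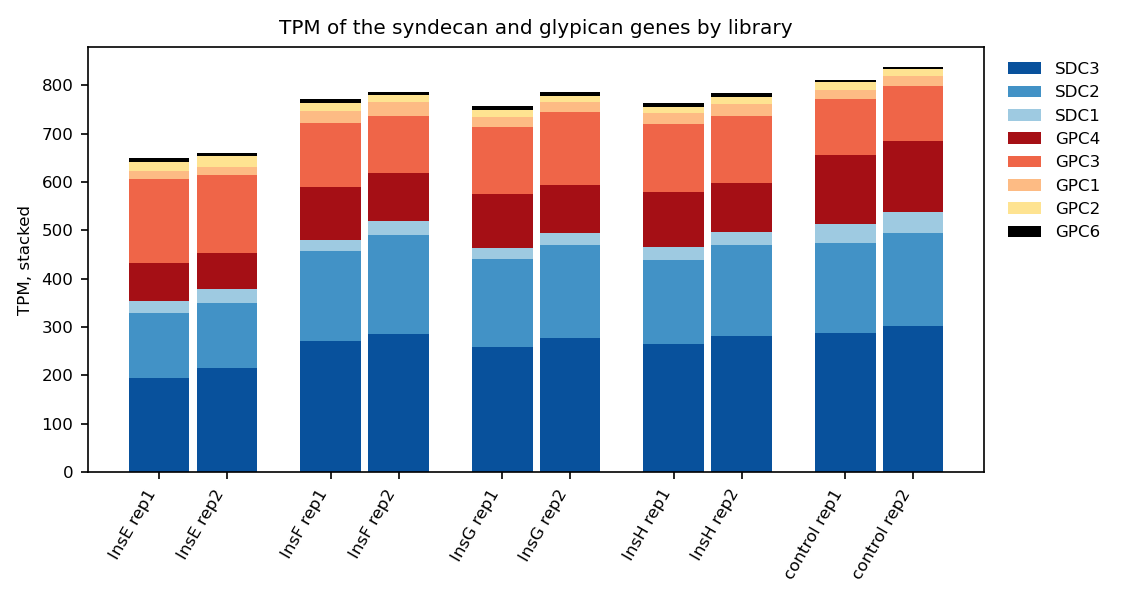
Stacked TPM of the 8 detected syndecan and glypican genes in each of the 10 libraries. SDC3 and SDC2 (blue, bottom) are the thick lower layers, the 2 InsE bars are the lowest at 649 and 660 TPM, and the control bars reach 810 and 837 TPM.

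Against control, 3 genes were called in the same direction in all 4 lines. GPC6 rose, and SDC1 and GPC4 fell, in each line by edgeR's quasi-likelihood test. In the mean of the lines, 5 of the 8 tested genes were called at an adjusted p under 0.05, 2 higher (GPC6, GPC3) and 3 lower (SDC1, SDC3, GPC4), beside 27.6% of all genes tested (13.1% higher and 14.5% lower). Called higher in all 4 lines were 1 of the 8 and 3.01% of all genes, and called lower in all 4 lines were 2 of the 8 and 4.23% of all genes. The median log2 change over the 8 genes was -0.08 in the mean of the lines, against 0.01 over all genes tested. In bulk RNA, fewer cells with a transcript and less transcript per cell cannot be told apart. The 4 comparisons with control share its 2 libraries.

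By line, 5 of 8 genes were called in InsE (2 higher, 3 lower), beside 23.2% of all genes (10.8% higher, 12.4% lower). In InsF 4 were called (2 higher, 2 lower), beside 22.3% of all genes (10.9% higher, 11.3% lower). In InsG 4 were called (1 higher, 3 lower), beside 20.3% of all genes (9.86% higher, 10.5% lower). In InsH 4 were called (2 higher, 2 lower), beside 18.4% of all genes (8.95% higher, 9.46% lower). The calls that were not common to the lines were GPC3 in InsE, SDC3 in InsE and InsG, and GPC1 in InsF and InsH.

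**Figure D2:**
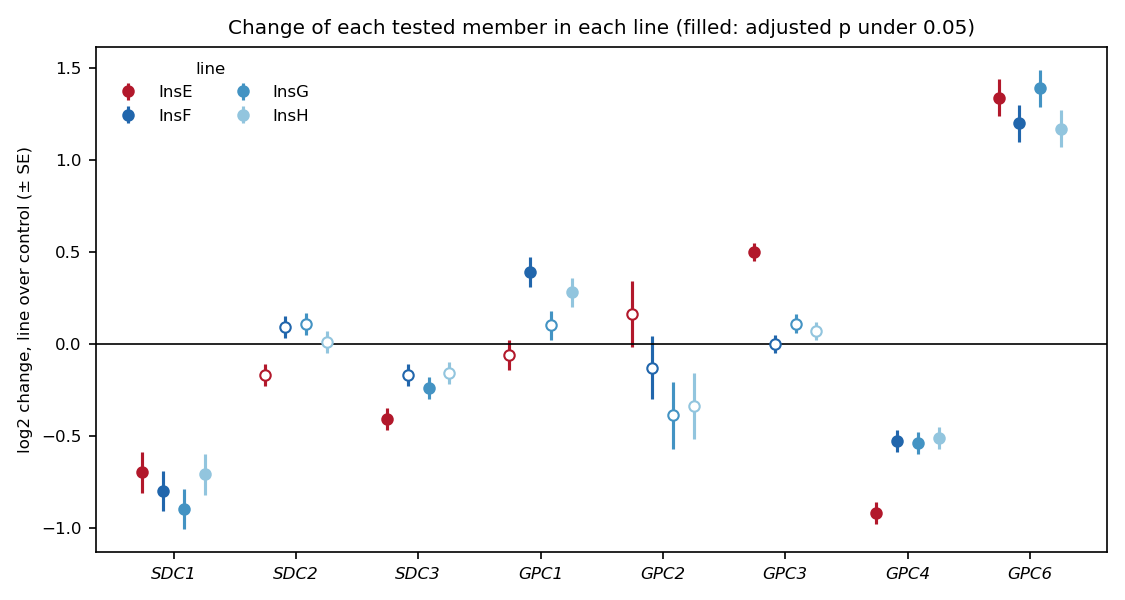
Log2 change of each tested gene in each line over control with its SE; filled points have an edgeR adjusted p under 0.05. GPC6 lies between 1.17 and 1.39 and SDC1 between -0.90 and -0.70 in the 4 lines, whereas GPC4 and GPC3 in InsE stand apart from the other lines.

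GPC6, whose loss causes a skeletal dysplasia in people, made the largest change among the 8 genes. The gene lies on chromosome 13 (93226842 to 94407401, plus strand, hg38). It had 34.3 and 29.7 CPM (a share of the library's counts, scaled by TMM and not corrected for length) in InsE, 31.2 and 27.7 CPM in InsF, 34.2 and 32.7 CPM in InsG and 28.4 and 29.6 CPM in InsH, against 13.5 and 11.96 CPM in control. All 8 line libraries were above both control libraries, and the lines lay close to one another. The log2 change was 1.34 ± 0.10 in InsE (SE; edgeR adjusted p = 2.96e-05), 1.20 ± 0.10 in InsF (adjusted p = 4.58e-05), 1.39 ± 0.10 in InsG (adjusted p = 2.36e-05) and 1.17 ± 0.10 in InsH (adjusted p = 7.36e-05). No difference among the 4 lines was called for GPC6 (edgeR adjusted p = 0.327). Its counts were not whole numbers in 9 libraries, so some of its reads were shared out by the quantifier.

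GPC5, its neighbour on chromosome 13 (91398607 to 92873682, plus strand), was at the limit of detection. Over the pair of libraries of each group it had 1 count in InsE, 2 counts in InsF, 2 counts in InsG and 1 count in InsH, against 0 in control. All are under the floor of 3 counts, so no fold is given. Other genes of this region were counted as well. Of the 9 tested genes within 2 Mb of GPC6, 7 were called higher in the mean of the lines, beside 13.1% of all genes tested. The others were not called, and the median log2 change was 0.54, against 0.01 over all genes. By line, 7 were called higher in InsF, 7 in InsG and 6 in InsH, beside 10.9%, 9.86% and 8.95% of all genes. In InsE 5 were called higher and 1 lower, beside 10.8% and 12.4% of all genes. Within 2 Mb of GPC5, a window that overlaps that of GPC6, 3 of 3 tested genes were called higher in the lines' mean, beside the same 13.1%. Their median was 0.62 (members are not counted as neighbours). Around the other 8 members, the called neighbours went in both directions or were few. For example, 2 were higher and 5 lower of 19 around GPC4, beside 13.1% and 14.5% of all genes. An annotated antisense gene, RP11-632L2.2, overlaps the start of GPC6 on the other strand and had 50 counts in all 10 libraries together. GPC6 itself had 6145 counts in all. The strand setting of the counting is not given in the sources used here. How fully the reads of both genes were told apart is thus not known.

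SDC1, the syndecan of epithelia and plasma cells, fell in every line. It lies on chromosome 2 (20200797 to 20225433, minus strand). It had 48.1 and 56.6 CPM in InsE, 44.4 and 52.7 CPM in InsF, 43.2 and 47.6 CPM in InsG and 49.1 and 54.0 CPM in InsH, against 79.4 and 89.3 CPM in control. The line libraries lay close to one another and all were below control. The log2 change was -0.70 ± 0.11 in InsE (SE; edgeR adjusted p = 0.00188), -0.80 ± 0.11 in InsF (adjusted p = 0.000866), -0.90 ± 0.11 in InsG (adjusted p = 0.000538) and -0.71 ± 0.11 in InsH (adjusted p = 0.00205). A difference among the lines was not called (edgeR adjusted p = 0.52), but it was with the replicate number as a block (adjusted p = 0.0339).

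GPC4, a glypican whose release by astrocytes promotes excitatory synapses in mice, fell in every line and lowest in InsE. It lies on the X chromosome (133300103 to 133415490, minus strand). It had 251 and 245 CPM in InsE, 332 and 314 CPM in InsF, 332 and 310 CPM in InsG and 338 and 318 CPM in InsH, against 463 and 474 CPM in control. Each InsE library was below each library of the other lines, and all lines were below control. The log2 change was -0.92 ± 0.06 in InsE (SE; edgeR adjusted p = 1.05e-05), -0.53 ± 0.06 in InsF (adjusted p = 0.000173), -0.54 ± 0.06 in InsG (adjusted p = 0.000204) and -0.51 ± 0.06 in InsH (adjusted p = 0.000275). InsE differed from the mean of the other lines by -0.39 ± 0.05 (edgeR adjusted p = 0.000399).

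**Figure D3:**
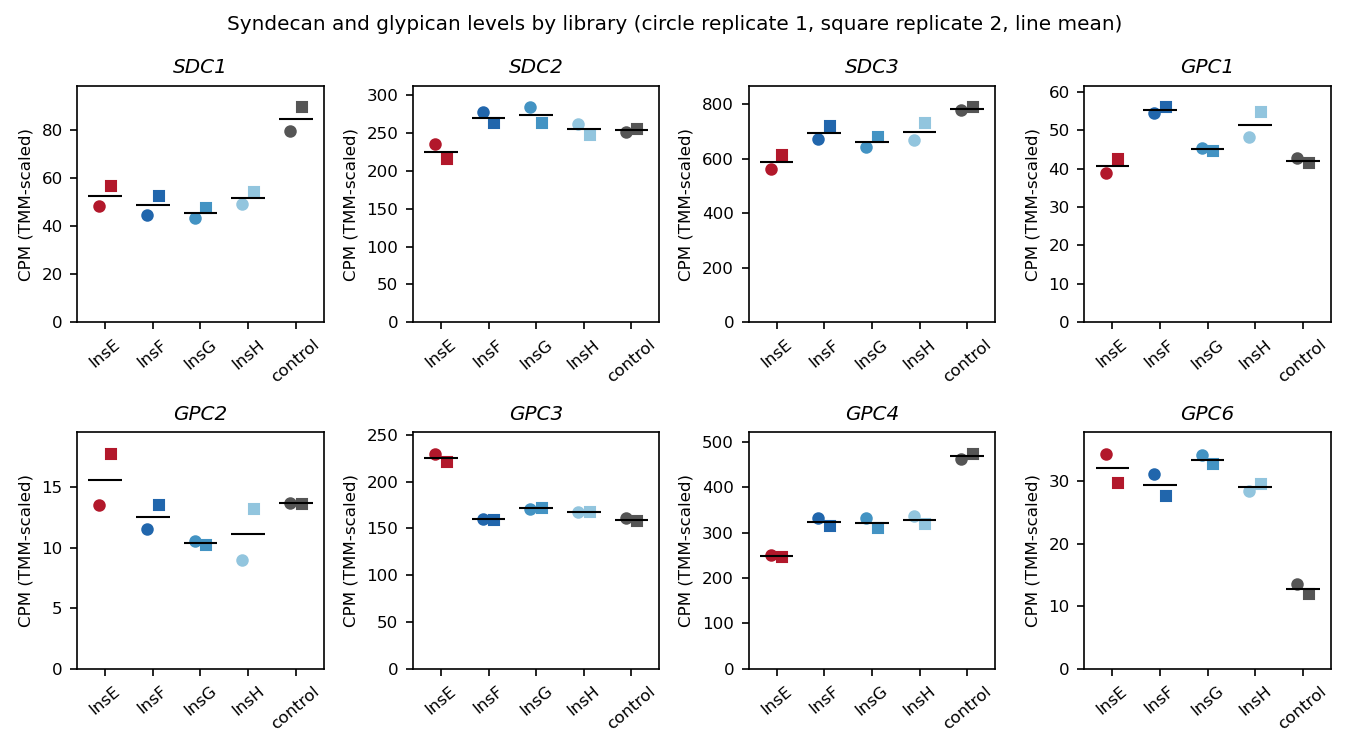
TMM-scaled CPM of each tested gene in each library, with the group mean as a line; every axis starts at 0. GPC6 is higher and SDC1 and GPC4 are lower in all 8 line libraries than in control, and GPC3 is high in InsE alone, at 230 and 221 CPM.

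The start regions of these 3 genes and of SDC4 are shown, since GPC6, SDC1 and GPC4 carry the changes called in all lines and SDC4 is the member with no counts. Each sequence is the 250 bases before the start in RefSeq (GRCh38.p14), 5′ to 3′ on the gene's strand, with the GC box GGGCGG on either strand in capitals. The windows are chr13:93226557-93226806 (plus) for GPC6, chr2:20225476-20225725 (minus) for SDC1, chrX:133415490-133415739 (minus) for GPC4 and chr20:45348425-45348674 (minus) for SDC4.
GPC6: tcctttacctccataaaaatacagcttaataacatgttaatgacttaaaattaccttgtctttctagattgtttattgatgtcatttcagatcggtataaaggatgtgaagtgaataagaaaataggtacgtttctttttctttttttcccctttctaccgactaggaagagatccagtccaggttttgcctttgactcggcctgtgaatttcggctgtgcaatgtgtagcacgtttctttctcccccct
SDC1: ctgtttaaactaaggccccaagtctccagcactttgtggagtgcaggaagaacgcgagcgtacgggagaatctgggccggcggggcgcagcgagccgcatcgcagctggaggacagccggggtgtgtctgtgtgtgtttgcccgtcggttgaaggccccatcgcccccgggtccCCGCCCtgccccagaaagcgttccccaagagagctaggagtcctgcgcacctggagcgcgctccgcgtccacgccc
GPC4: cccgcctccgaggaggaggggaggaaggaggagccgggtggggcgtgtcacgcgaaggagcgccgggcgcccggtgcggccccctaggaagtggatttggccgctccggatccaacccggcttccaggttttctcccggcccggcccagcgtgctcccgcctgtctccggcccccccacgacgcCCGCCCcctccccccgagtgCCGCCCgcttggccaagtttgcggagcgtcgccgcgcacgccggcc
SDC4: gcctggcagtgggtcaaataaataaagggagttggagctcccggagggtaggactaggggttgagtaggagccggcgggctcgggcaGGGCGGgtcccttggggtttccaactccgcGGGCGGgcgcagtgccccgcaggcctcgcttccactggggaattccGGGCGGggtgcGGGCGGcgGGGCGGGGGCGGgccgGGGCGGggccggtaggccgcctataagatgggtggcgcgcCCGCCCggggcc
The GPC6 window is 37.6% G and C, holds 6 CpG pairs, no GC box and 1 TATAAA. The SDC1 window is 66.4% G and C with 23 CpG and 1 GC box, that of GPC4 76.0% with 32 CpG and 2 GC boxes, and that of SDC4 73.6% with 26 CpG and 8 GC boxes, a pair of which abut. Among 35116 promoters of the same length, the median was 58.0% G and C and 11 CpG, 42.6% held GGGCGG and 10.7% held TATAAA on either strand. With 6 CpG, GPC6 was at or above 41.1% of these promoters. CACGTG, the E-box, was in none of the 8 members' windows and in 6.34% of all promoters. The table held 8 of the 10 members, and SDC2 and GPC3 were not among them. A letter match in such a window is a description only.

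GPC3, an inhibitor of hedgehog signalling that is lost in Simpson-Golabi-Behmel overgrowth syndrome, rose in InsE. It is the next member on the X chromosome (133535745 to 133985895, minus strand) to GPC4. It had 230 and 221 CPM in InsE, 160 and 159 CPM in InsF, 171 and 172 CPM in InsG and 167 and 167 CPM in InsH, against 161 and 158 CPM in control. Both InsE libraries stood above all others, and InsF overlapped control. The log2 change was 0.50 ± 0.05 in InsE (SE; edgeR adjusted p = 0.000109), against 0.00 ± 0.05 in InsF (adjusted p = 0.977), 0.11 ± 0.05 in InsG (adjusted p = 0.147) and 0.07 ± 0.05 in InsH (adjusted p = 0.349). InsE differed from the mean of the other lines by 0.44 ± 0.04 (edgeR adjusted p = 4.82e-05). In TPM the picture was broader, with 119 to 174 TPM in all line libraries and 115 and 113 TPM in control. Limma on log2(TPM + 1) called GPC3 in InsG as well (adjusted p = 0.0322). So did edgeR with library sizes alone (adjusted p = 0.039) and with the replicate number as a block (adjusted p = 0.0379). The call in the mean of the lines (0.17 ± 0.04, edgeR adjusted p = 0.00908) was lost without control replicate 1 (adjusted p = 0.0959) and without control replicate 2 (adjusted p = 0.148). A processed pseudogene, RP3-417G15.1, lies inside GPC3 on the other strand, with 418 counts in all and no call in the mean of the lines (log2 change -0.01, edgeR adjusted p = 0.977).

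The balance of the X-linked pair was turned over in the lines, a description with no test. The ratio of GPC4 TPM to GPC3 TPM was 0.456 in both InsE libraries, and it was 0.667 to 0.841 in the libraries of the other lines. In control it was 1.24 and 1.301. All line libraries were below 1 and both control libraries above it. GPC3 made up 58.2% of the glypican TPM in InsE and 44.9% to 49.2% in the other lines, against 38.2% in control. GPC4 made up 26.5% in InsE and 36.2% to 37.7% in the other lines, against 48.7% in control.

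SDC3, the syndecan of the nervous system, fell most in InsE. It lies on chromosome 1 (30869467 to 30908761, minus strand). It had 563 and 616 CPM in InsE, 672 and 719 CPM in InsF, 645 and 680 CPM in InsG and 669 and 730 CPM in InsH, against 779 and 789 CPM in control. All 8 line libraries were below both control libraries, and InsE was below the other lines. The log2 change was -0.41 ± 0.06 in InsE (SE; edgeR adjusted p = 0.00174) and -0.24 ± 0.06 in InsG (adjusted p = 0.0258), while it did not pass in InsF (-0.17 ± 0.06, adjusted p = 0.0826) or InsH (-0.16 ± 0.06, adjusted p = 0.106). Without the filter on low counts it was called in InsF (edgeR adjusted p = 0.0137) and in InsH (adjusted p = 0.0294). The same held with the replicate number as a block, in InsF (edgeR adjusted p = 0.000754) and in InsH (adjusted p = 0.00128). The InsG call was lost without either control library (edgeR adjusted p = 0.12 and 0.133), without InsG replicate 1 (adjusted p = 0.146), with library sizes alone (adjusted p = 0.0603) and by limma (adjusted p = 0.269). The call in the mean of the lines (-0.25 ± 0.05, edgeR adjusted p = 0.0054) was lost without control replicate 1 (adjusted p = 0.0621) or 2 (adjusted p = 0.0696).

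GPC1, a glypican of brain that is raised in pancreatic cancer, was called higher in InsF and InsH. It lies on chromosome 2 (240435671 to 240468078, plus strand). It had 39.0 and 42.6 CPM in InsE, 54.6 and 56.0 CPM in InsF, 45.3 and 44.8 CPM in InsG and 48.1 and 54.8 CPM in InsH, against 42.8 and 41.4 CPM in control. InsE overlapped control, and the other lines lay above it. The log2 change was 0.39 ± 0.08 in InsF (SE; edgeR adjusted p = 0.0058) and 0.28 ± 0.08 in InsH (adjusted p = 0.0312), against -0.06 ± 0.08 in InsE (adjusted p = 0.65) and 0.10 ± 0.08 in InsG (adjusted p = 0.415). The InsF call was lost without control replicate 2 (edgeR adjusted p = 0.0609). The InsH call was lost by DESeq2 (adjusted p = 0.0807), by limma (adjusted p = 0.11), without InsH replicate 2 (edgeR adjusted p = 0.173) and without control replicate 1 (adjusted p = 0.128) or 2 (adjusted p = 0.185). InsE differed from the mean of the other lines by -0.31 ± 0.07 (edgeR adjusted p = 0.00778), a call lost without InsE replicate 1 (adjusted p = 0.12).

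SDC2, the syndecan of mesenchymal cells, passed the test in InsE under some settings only. It lies on chromosome 8 (96493351 to 96611780, plus strand). It had 235 and 216 CPM in InsE, 278 and 263 CPM in InsF, 284 and 264 CPM in InsG and 263 and 248 CPM in InsH, against 252 and 256 CPM in control. InsE was below the other groups, and InsH overlapped control. None of the 4 lines was called against control, with -0.17 ± 0.06 in InsE (SE; edgeR adjusted p = 0.0817) as the largest change. Without the filter on low counts the InsE value was called (-0.20, edgeR adjusted p = 0.0313). With the replicate number as a block InsE was called lower (edgeR adjusted p = 0.00358) and InsG higher (adjusted p = 0.0342). In TPM the gap was wider, with 135 and 136 TPM in InsE against 185 and 191 TPM in control, and limma on log2(TPM + 1) called the fall (-0.47, adjusted p = 0.00666).

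The quantifier gave SDC2 a longer mean transcript in 7 of the 8 line libraries than in control. The length used was 2821 and 2479 bases in InsE, 2584 and 2142 bases in InsF, 2718 and 2340 bases in InsG and 2620 and 2227 bases in InsH, against 2210 and 2178 bases in control. The exception was InsF replicate 2, and in each line replicate 1 had the longer value. SDC3 also had its longest mean transcripts in InsE, at 4556 and 4310 bases, with 3952 to 4221 bases in the other lines and 4175 and 4051 bases in control. GPC4 had 4960 bases in every library. Whether other transcript forms were used, or reads were shared out differently between them, was not tested.

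**Figure D4:**
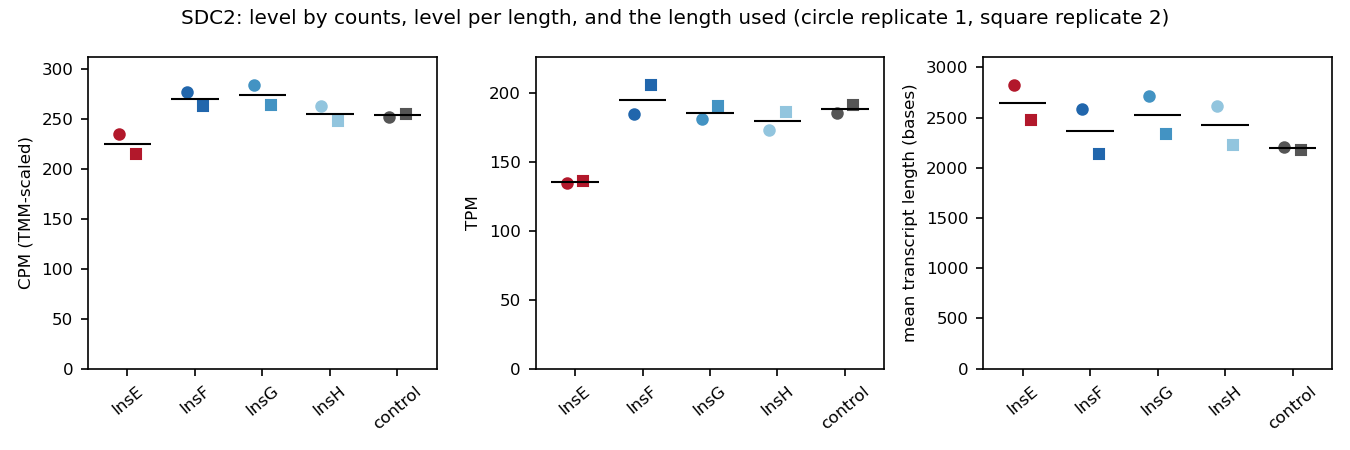
SDC2 by library in TMM-scaled CPM (left), in TPM (middle) and as the mean transcript length in bases that the quantifier used (right), with group means as lines. InsE is at 235 and 216 CPM against 252 and 256 CPM in control, and at 135 and 136 TPM against 185 and 191 TPM in control, while its group mean transcript length is the longest.

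GPC2, a glypican of developing neurons, was the least precisely measured of the 8. It lies on chromosome 7 (100169606 to 100177372, minus strand). It had 13.5 and 17.8 CPM in InsE, 11.6 and 13.6 CPM in InsF, 10.5 and 10.2 CPM in InsG and 8.97 and 13.3 CPM in InsH, against 13.7 and 13.7 CPM in control. InsE spanned the control level, and its 2 libraries lay far apart, as did those of InsH. No line was called against control, with log2 changes between -0.39 ± 0.18 in InsG (SE; edgeR adjusted p = 0.148) and 0.16 ± 0.18 in InsE (adjusted p = 0.566). Without the filter on low counts the InsG value was called (edgeR adjusted p = 0.0236). With the replicate number as a block InsG (edgeR adjusted p = 0.0319) and InsH (adjusted p = 0.046) were called.

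SDC4, the syndecan of focal adhesions, had 0 counts in all 10 libraries. It lies on chromosome 20 (45325288 to 45348424, minus strand). With 223.4 M counts in all, a count of 0 allows up to 0.0134 CPM over all libraries, and 0.056 to 0.0859 CPM per line and 0.059 CPM in control, counting error only. Genes beside it were detected: SYS1 had 6152 counts over the 10 libraries and 15.9 to 24.5 TPM, and PIGT had 26013 counts and 84.2 to 128 TPM. RBPJL, the nearest gene with a known product, had 0 counts as well. SYS1, PIGT and RBPJL were picked after their values were seen. Over the series, 29172 of the 58381 gene rows were at 0 in every library.

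Differences among the lines lay between InsE and the other 3 in every pair called. Among the 4 lines a difference was called for 4 of 8 genes, beside 13.2% of all genes tested. They were GPC3 (edgeR adjusted p = 0.000394), GPC4 (adjusted p = 0.00333), GPC1 (adjusted p = 0.0151) and SDC2 (adjusted p = 0.0441). With the replicate number as a block, SDC1 (edgeR adjusted p = 0.0339), SDC3 (adjusted p = 0.000129) and GPC2 (adjusted p = 0.0176) were called as well, beside 5442 of all genes. SDC3 did not pass in the main fit (edgeR adjusted p = 0.0731). It was also called by DESeq2 (adjusted p = 0.0117), by limma (adjusted p = 0.0212) and without the filter on low counts (edgeR adjusted p = 0.000449). GPC2 was also called without that filter (edgeR adjusted p = 0.004). InsE against the mean of InsF, InsG and InsH gave 5 calls, 1 higher and 4 lower, beside 24.2% of all genes (11.4% higher and 12.8% lower). GPC3 was higher, and GPC4, GPC1, SDC2 (-0.24 ± 0.05, edgeR adjusted p = 0.00917) and SDC3 (-0.22 ± 0.05, edgeR adjusted p = 0.0151) were lower. The SDC2 call was lost without InsE replicate 2 (edgeR adjusted p = 0.124) and the SDC3 call without InsE replicate 1 (adjusted p = 0.158). GPC2 had 0.44 ± 0.15 and did not pass (edgeR adjusted p = 0.0538). It passed without the filter on low counts (edgeR adjusted p = 0.00118), with the replicate number as a block (adjusted p = 0.0046) and by limma (adjusted p = 0.0265). Without InsH replicate 2 its value was 0.53.

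In pairs of lines, 5 of the 8 genes differed between InsE and InsF (18.6% of all genes), 3 between InsE and InsG (17.3%) and 4 between InsE and InsH (14.5%). By edgeR, 0 of the 8 differed between InsF and InsG (0.174% of all genes), between InsF and InsH (0.0707%) or between InsG and InsH (0%). At an unadjusted p under 0.05 there was 1 in InsF against InsG and 1 in InsG against InsH, GPC1 in both, and none in InsF against InsH; no other tool was run on these pairs. Ordered by mean CPM, the neighbouring groups that differed beyond their spread were few. They were InsE and control for SDC1, InsH and control for GPC6, InsH and control as well as InsE and InsG for GPC4, and InsE and InsG for GPC3. No neighbouring groups were called for SDC2, SDC3, GPC1 or GPC2.

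For the 3 genes with the widest spread of group levels, the genes with the most similar profile were taken by the root mean square difference of centred log2 CPM over the 10 libraries, among 12607 genes. For GPC6 they were SPINK5 (0.106), CEP44 (0.158) and ZNF256 (0.176). SPINK5, which encodes a protease inhibitor of skin, had a mean of 206 CPM in the lines and 84.8 CPM in control. For GPC4 they were BIRC6 (0.0405), ARFGEF3 (0.0501) and KLF11 (0.0528), and for SDC1 they were ZNF423 (0.0766), CAD (0.0777) and HSPG2 (0.0806). HSPG2 encodes perlecan, itself a heparan sulfate proteoglycan of basement membranes.

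The genes that build the chains were counted by list. For the linker and chain polymerisation, 9 of 11 genes were tested and 1 was called higher and 1 lower in the mean of the lines. They were EXTL2, at 0.31 ± 0.09 (SE, edgeR adjusted p = 0.0287), and EXTL3, at -0.25 ± 0.06 (adjusted p = 0.00848), both glycosyltransferases. By line, EXTL2 was called in InsG alone and EXTL3 in InsE alone. Of these 9 genes, 1 was called lower in InsE, 2 were called higher in InsF, and 1 higher each in InsG and InsH. Called over all genes were 12.4% lower in InsE and 10.9%, 9.86% and 8.95% higher in InsF, InsG and InsH. Of 16 genes that sulfate and modify the chains, 10 were tested and 1 fell, HS6ST2, a 6-O-sulfotransferase. It averaged 27.9 CPM in InsE, 23.0 CPM in InsF, 24.2 CPM in InsG and 23.0 CPM in InsH, against 41.8 CPM in control (log2 change -0.76 ± 0.08, edgeR adjusted p = 0.000178). By line, 4 of these 10 were called in InsE, all lower (12.4% of all genes were lower there), against 2 higher and 1 lower in InsF, 1 higher and 1 lower in InsG and 1 lower in InsH. Of the 9 linker and polymerisation genes, 3 were called lower in InsE than in the mean of the other lines, beside 12.8% of all genes. Of 6 genes of precursor supply, 1 was called lower in the mean of the lines, UGDH, which makes UDP-glucuronic acid (-0.26 ± 0.07, edgeR adjusted p = 0.0179). By line, UGDH was called lower in InsE and InsF but not in InsG (edgeR adjusted p = 0.139) or InsH (adjusted p = 0.065). In InsF 1 gene of this list was called higher, beside 10.9% of all genes. The medians of these 3 lists were 0.11, 0.04 and 0.05, against 0.01 over all genes. In the lines' mean, 13.1% of all genes were called higher and 14.5% lower.

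Genes that edit the chains outside the cell or shed the core proteins included HPSE2 and SULF1, which were called higher in each of the 4 lines. Of 11 such genes 8 were tested. In the lines' mean 4 were called higher, beside 13.1% of all genes, and the other 4 did not pass. The median log2 change was 0.48, against 0.01 over all genes. HPSE2, heparanase-2, which binds heparan sulfate without cutting it, averaged 4.93 CPM in InsE, 8.37 CPM in InsF, 7.26 CPM in InsG and 7.83 CPM in InsH, against 1.20 CPM in control (2.53 ± 0.14, edgeR adjusted p = 3.68e-06). SULF1, a sulfatase that removes 6-O-sulfates, averaged 19.1 CPM in InsE, 29.8 CPM in InsF, 29.2 CPM in InsG and 28.7 CPM in InsH, against 12.0 CPM in control (1.15 ± 0.08, edgeR adjusted p = 8.69e-06). Its relative SULF2 averaged 0.724 CPM in InsE, 3.87 CPM in InsF, 2.63 CPM in InsG and 2.63 CPM in InsH, against 1.07 CPM in control (0.98 ± 0.28, edgeR adjusted p = 0.0263). ADAMTS1, a protease, rose by 0.21 ± 0.04 (edgeR adjusted p = 0.00331) but was not called in InsE (0.05 ± 0.05, adjusted p = 0.514). By line, 4 were called higher in each of InsF, InsG and InsH, beside 10.9%, 9.86% and 8.95% of all genes. Their medians were 0.34, 0.60 and 0.44 in that order. In InsE 2 were called higher and 2 lower, beside 10.8% and 12.4% of all genes, with a median of -0.06. Within the lines the list ran lower in InsE. There 7 of the 8 were called lower than in the mean of the other lines, beside 12.8% of all genes, with a median of -0.37.

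**Figure D5:**
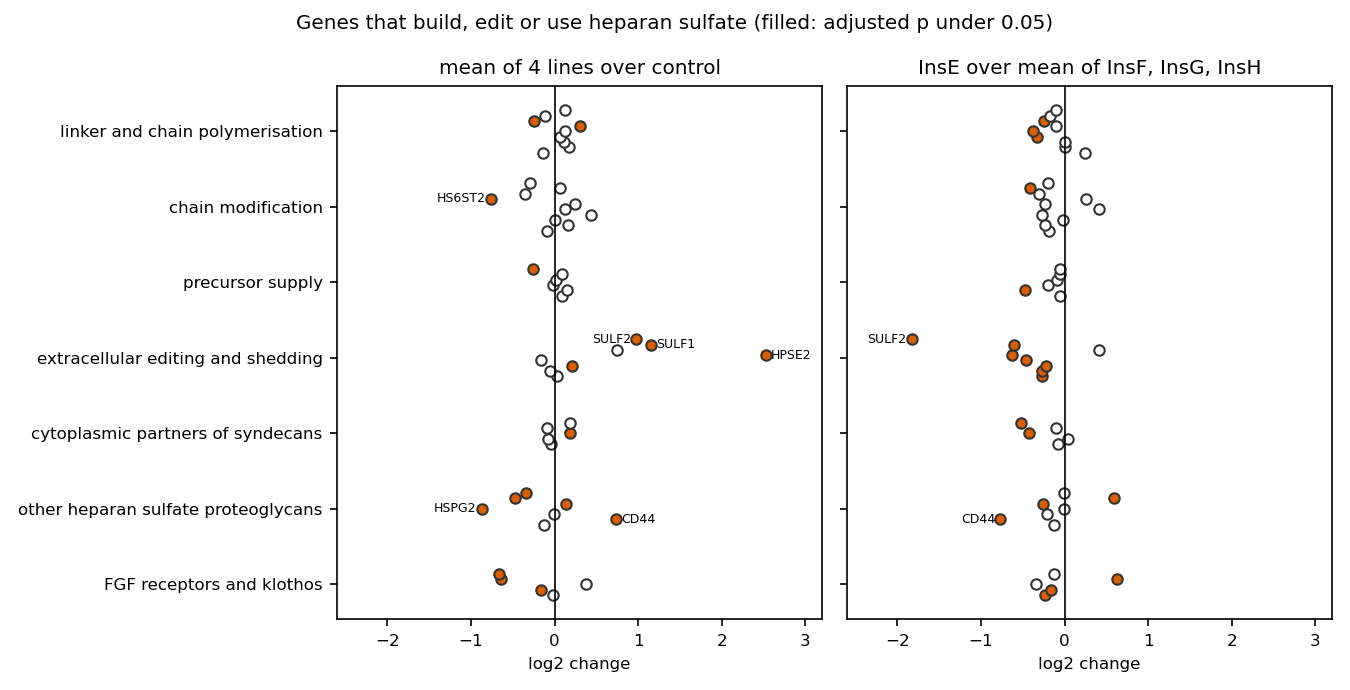
Log2 change of each tested gene in 7 related lists, for the mean of the 4 lines over control (left) and for InsE over the mean of the other lines (right), filled where the edgeR adjusted p is under 0.05. HPSE2, at 2.53, and SULF1, at 1.15, are the farthest right on the left side, and SULF2, at -1.83, is the farthest left on the right side.

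Other heparan sulfate proteoglycans moved both ways. Of 10 genes 7 were tested, and in the lines' mean 2 rose and 3 fell, with a median of -0.13. Of all genes, 13.1% were called higher and 14.5% lower there. HSPG2 averaged 48.9 CPM in InsE, 50.3 CPM in InsF, 47.2 CPM in InsG and 50.1 CPM in InsH, against 89.3 CPM in control (-0.87 ± 0.07, edgeR adjusted p = 2.26e-05). CD44, a hyaluronan receptor with forms that carry heparan sulfate, rose by 0.74 ± 0.05 on the log2 scale. SPOCK2 (testican-2) fell by 0.47 ± 0.13 and TGFBR3 (betaglycan) by 0.34 ± 0.05. In InsE neither CD44 (0.16 ± 0.07, edgeR adjusted p = 0.12) nor SPOCK2 (-0.02 ± 0.17, adjusted p = 0.946) was called. The other lines had 0.82 to 1.13 for CD44 and -0.68 to -0.56 for SPOCK2, all called. Of 6 cytoplasmic partners of the syndecans 5 were tested, and 1 was called higher in the lines' mean, beside 13.1% of all genes. It was PRKCA, the protein kinase that binds the syndecan-4 tail (0.18 ± 0.06, edgeR adjusted p = 0.0398). PRKCA was called in InsF (0.46 ± 0.07) and InsH (0.24 ± 0.07) but not in InsE (-0.14 ± 0.07) or InsG (0.14 ± 0.07).

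On the FGF side, 5 of 7 receptor and klotho genes were tested. In the lines' mean 3 fell, beside 14.5% of all genes, and the other 2 did not pass. FGFRL1, a receptor without a kinase domain, changed by -0.66 ± 0.08, FGFR4 by -0.64 ± 0.14 and FGFR2 by -0.16 ± 0.03. FGFRL1 was called lower in all 4 lines. FGFR4 was not called in InsE (-0.16 ± 0.18, edgeR adjusted p = 0.556), nor FGFR2 in InsG or InsH. FGFR2 remained the most counted of the 3, at 409 to 465 CPM in the lines and 496 CPM in control. Of 22 genes with FGF symbols 7 were tested. In the lines' mean 3 rose and 1 fell, beside 13.1% higher and 14.5% lower of all genes. FGF3 averaged 36.3 CPM in InsE, 13.4 CPM in InsF, 5.33 CPM in InsG and 8.86 CPM in InsH, against 0 in control. FGF19 (2.39 ± 0.55) and FGF14 (0.55 ± 0.07) also rose, and FGF2, the classic heparan sulfate binding FGF, fell by 0.51 ± 0.10 on the log2 scale. FGF19 was near the detection floor, at 0.076 CPM in control and 0.296 to 0.951 CPM in the lines. It was not called in InsG (edgeR adjusted p = 0.111) or InsH (adjusted p = 0.0627), and FGF2 was not called in InsE (adjusted p = 0.0918). FGF3 was thus highest in InsE, the line with the lowest summed syndecan level; with 4 lines no relation between them was tested.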

How the data were processed

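Polyadenylated RNA was sequenced per the labels' protocols. The authors deposited, per library, a table of expected counts (estimated by RSEM, not normalised), TPM and transcript length for 58381 genes. Per the submitters' processing notes, the build was hg38, and the tools named are DESeq2 1.38.3, RSEM 1.3.2 and STAR 2.5.3. The sources used here give neither annotation release nor strand setting. A further table with 10 value columns was not used, since its column names match no label.

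Expected counts were rounded and tested with edgeR 4.0.16 (R 4.3.3; TMM, robust quasi-likelihood, expression filter with a minimum count of 10), all 10 libraries in 1 fit with 5 residual degrees of freedom and no replicate block. This kept 15554 genes. Tests were two-sided, adjusted by Benjamini-Hochberg over all genes tested, threshold 0.05; the SE is the log2 change divided by the root of the quasi-likelihood F. A count of 0 was read as up to 3 counts. Positions came from GENCODE 29 (58216 rows matched) and promoters from RefSeq (GRCh38.p14). Steps were tested on simulated data. Alternatives in edgeR were size factors of the DESeq2 type (RLE), library sizes alone, no filter, a replicate block, and each library left out. The other alternatives were the test of DESeq2 1.42.0 and limma 3.58.1 on log2(TPM + 1).

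The members and the lists were chosen with earlier results of these data known. Named were all members, up to 4 called genes per related list with the largest change in the mean of the lines, the 3 genes most like each of the 3 members with the widest range, and overlapping genes.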

Additional observations from a re-analysis of the deposited data

Results flagged for a closer look

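The change against control differed among the lines for 4 of the 8 tested genes, by edgeR's quasi-likelihood test of any difference among InsE, InsF, InsG and InsH. GPC3 (adjusted p = 0.000394) averaged 225 CPM in InsE and 160 to 172 CPM in the other lines. GPC4 (edgeR adjusted p = 0.00333) averaged 248 CPM in InsE and 321 to 328 CPM in the other lines; the call was lost without InsE replicate 2 (adjusted p = 0.0531). GPC1 (edgeR adjusted p = 0.0151) averaged 40.8 CPM in InsE and 45.02 to 55.3 CPM in the other lines; the call was lost without InsE replicate 1 (adjusted p = 0.0976). SDC2 (edgeR adjusted p = 0.0441) averaged 225 CPM in InsE and 255 to 274 CPM in the other lines; the call was lost in 9 of the 10 fits that left out 1 library (adjusted p between 0.0542 and 0.276), and held without InsG replicate 2. Whether a line grew from a single clone is not given in the sources used here, so the edit and the clone cannot be told apart.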

How the results depend on the processing

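The falls of SDC1 and GPC4 and the rise of GPC6 against control kept their direction and their call in each of the 4 lines under every alternative run. The largest adjusted p of GPC6 was 0.00358, in InsF by limma; those of GPC4 and SDC1 were 0.0245 and 0.0246, in InsH. Over all tested genes of the 2 families there were 896 alternative values: 815 kept direction and side of the threshold, 29 lost a call, 29 gained one and 23 changed sign without a call. The sign changed by limma on log2(TPM + 1) for SDC2 in InsG (-0.019), InsH (-0.065) and the mean of the lines (-0.126) and for GPC6 in InsE against the other lines (-0.038). It changed without the filter for GPC3 in InsF (-0.015) and for SDC2 in InsH (-0.002) and the mean (-0.003). With 1 library left out, the log2 change ran from -0.106 to 0.013 for GPC1 and from -0.012 to 0.373 for GPC2 in InsE, from -0.016 to 0.015 for GPC3 in InsF, from -0.04 to 0.048 for SDC2 in InsH and from -0.009 to 0.024 for SDC2 in the mean, and from -0.043 to 0.178 for GPC6 in InsE against the other lines.

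Genes called over the whole table moved by over 1.5 times as follows; the cause was not tested, apart from the smaller number of libraries where 1 is left out. Against control, the main counts were 3611 in InsE, 3461 in InsF, 3163 in InsG, 2863 in InsH and 4296 in the mean, with 2055 among the lines and 3762 in InsE against the other lines. Limma gave 1791, 1661, 1329, 1367 and 2236 against control and 984 among the lines. DESeq2 gave 2212 in InsF, 2065 in InsG, 1856 in InsH and 2479 in InsE against the other lines. Without the filter 3660 differed among the lines. With 1 library left out, the counts ran from 1429 to 3516 in InsE, 1446 to 3390 in InsF, 1170 to 3142 in InsG, 1108 to 2845 in InsH, 1501 to 4311 in the mean, 700 to 1873 among the lines and 1956 to 3495 in InsE against the other lines. The lowest counts came without control replicate 1 against control and without InsE replicate 1 in the others. Members called then ran from 3 to 6 in the mean (3 without either control library), 2 to 4 among the lines (2 without either InsE library) and 3 to 6 in InsE against the other lines (3 without InsE replicate 1).

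With the replicate number as a block, 5935, 5886, 5769, 5317 and 6679 genes were called in InsE, InsF, InsG, InsH and the mean against control, 5442 among the lines and 5942 in InsE against the other lines, and 7 members were called in InsG and 7 among the lines, against 4 and 4 without it. The block lost no member's call and added 12: among the lines SDC1 (adjusted p = 0.0339), SDC3 (0.000129) and GPC2 (0.0176), in InsE SDC2 (0.00358), in InsF SDC3 (0.000754), in InsG SDC2 (0.0342), GPC2 (0.0319) and GPC3 (0.0379), in InsH SDC3 (0.00128) and GPC2 (0.046), in the mean GPC1 (0.0102) and in InsE against the other lines GPC2 (0.0046). Same-numbered libraries deviated together among the lines (correlation 0.6 to 0.66 over 12080 genes) but hardly with control (0.02 to 0.07). With only 2 numbers, the main fit did not take them as pairing, so the calls among the lines rest in part on that choice.

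Of the calls, 46.4% to 49.1% were higher against control, but 60.2% to 64.8% with library sizes alone, and by limma 42.2% in InsE, 69.5% in InsF, 67.5% in InsG, 70.5% in InsH and 64.2% in the mean. For InsE against the other lines 47.2% were higher, and 23.7% by limma. Depth limits GPC5 and SDC4, which stayed under 3 counts per group, and GPC2, with 114 to 451 counts per library.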
